A study of Mus musculus with 2 samples.

Results

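The genes described here are 30 named members of the type I interferon response, measured in single cortical myeloid cells of an amyloid mouse model. Members were matched by gene symbol. Of the 30, 29 had a row among the 31053 genes measured, and Mx2 is not analysed here. The mice were male 5xFAD hemizygotes on C57BL/6J, which carry mutant human amyloid precursor protein and presenilin transgenes under a neuronal promoter. All of them received 5 uL of Visudyne, a photosensitiser, into the cisterna magna at 4 months of age. In the control group no light followed. In the photoconversion group 5 steps of transcranial 689-nm light activated the drug, a procedure used to ablate meningeal lymphatic vessels. Injections were repeated after 3 weeks and cortex was taken 3 weeks later, at 5.5 months. Singlet SYTOX-Ly6G-CD45+CD11b+ cells of 3 mice were pooled into 1 library per group, so mice within a library could not be told apart and no replicate check exists. Every difference below is one between 2 libraries or between cells of 1 library, and all intervals are exact 95% intervals that cover counting error only.

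Type I interferons bind the receptor pair Ifnar1 and Ifnar2, which signals through the kinases Jak1 and Tyk2. Transcription factors that include Stat2 and Irf9 then assemble on interferon-stimulated response elements and switch on antiviral genes. In microglia, the resident macrophages of the brain, this programme is known from ageing, injury and amyloid models, where it often appears in a small subset of cells. Cst7 is a gene known to be high in the plaque-associated microglial state and P2ry12 is a marker of the homeostatic state. A cell with more Cst7 than P2ry12 molecules is called Cst7-dominant here, and the reverse P2ry12-dominant.

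RefSeq promoter windows, from 250 bases before to 50 after the transcription start on GRCm38.p6, were matched for 20 of the members. The core of the response element, GAAA and a further GAAA separated by any 2 bases, was searched on both strands, overlapping matches included. It was found in the windows of 13 of the 20 genes, against 3.99% of 27025 genes with a window. The longer form, in which CT follows the core directly and which is always also a match of the core, was found in 9 of the 20, against 0.303% of all genes. The interferon-gamma type element TTCNNNGAA was found in 6 of the 20, against 9.55%. A match describes letters in a window and is no evidence of binding. The stretches below are shown because they belong to members with molecules concentrated in few cells (Ifit1, Ifit3, Ifit3b, Rsad2), to members found in many cells (Bst2, Isg15) and to Gbp7, which had higher values in P2ry12-dominant cells. Capitals mark the bases covered by the core or, where the match lies on the other strand, by its reverse complement. Each stretch is on the strand of its gene and lies before the start.
Ifit1, chr19:34640770-34640828, plus strand: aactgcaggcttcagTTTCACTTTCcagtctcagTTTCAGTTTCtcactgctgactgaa
Ifit3, chr19:34583358-34583431, plus strand: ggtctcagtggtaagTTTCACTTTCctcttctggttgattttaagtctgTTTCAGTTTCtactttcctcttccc
Ifit3b, chr19:34607754-34607827, plus strand: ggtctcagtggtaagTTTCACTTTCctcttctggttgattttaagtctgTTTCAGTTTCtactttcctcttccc
Rsad2, chr12:26456548-26456587, minus strand: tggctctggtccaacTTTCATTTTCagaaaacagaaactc
Isg15, chr4:156200860-156200911, minus strand: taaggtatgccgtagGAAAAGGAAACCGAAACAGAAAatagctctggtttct
Bst2, chr8:71537572-71537617, minus strand: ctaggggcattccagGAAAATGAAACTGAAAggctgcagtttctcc
Gbp7, chr3:142530268-142530307, plus strand: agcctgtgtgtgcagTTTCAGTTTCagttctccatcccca

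The 74 bases of Ifit3 and Ifit3b are identical, and aligned at their best offset the 2 windows share 201 of 268 bases. Ifit2, Ifit3, Ifit3b and Ifit1 lie beside each other on chromosome 19, between positions 34550694 and 34650009 of GRCm38. How molecules were shared between near-identical copies is not given in the sources used here, so values of Ifit3 and Ifit3b are uncertain as to copy.

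Each library held 2000 barcodes, and a barcode was kept if 200 or more genes were detected in it and no more than 10% of its molecules were mitochondrial. Molecules were counted as unique molecular identifiers (UMIs). The 555 kept control cells held 2422711 UMIs, with a median of 2670 per cell, and the 317 kept photoconversion cells held 1816177, with a median of 3410. The libraries shared 27 barcodes, none of them kept in both, and 11 kept in 1 of them. All 10 microglia markers were present, each detected in a mean of 88% of kept cells of either library. Barcodes with more marker UMIs of other brain cell types than of microglia numbered 12 and 9. Doublets were not removed. 

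The 29 genes fell into a broadly detected trio and a long tail. Ifi27l2a, a small interferon-induced protein, had 3019 UMIs over both libraries and was detected in 438 cells (50.2%). Bst2, tetherin, which holds budding virions at the cell surface, had 1988 UMIs in 501 cells (57.5%). Ifitm3, which restricts virus entry at endosomes, had 1466 UMIs in 347 cells (39.8%). These 3 genes held 66.8% of all UMIs of the list. UMIs here are not scaled for transcript length, so this order is one of UMIs only.

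Of the 29 genes, 12 were detected in at least 10% of kept cells, where 42.4% of the 8823 genes with at least 20 UMIs were. The next in order after the trio were Rtp4, a receptor transporter protein, with 333 UMIs in 165 cells, Ifi35, a partner of Nmi, with 276 in 185, and Trim30a, of the TRIM ligase family, with 271 in 170. Slfn2, a Schlafen protein, had 252 UMIs in 151 cells and Isg15, a ubiquitin-like modifier, had 226 in 90. Between 2% and 10% of cells detected 14 genes. Under 2% detected Iigp1, Ifi44 and Oas2, or 3 of 29, against 1.98% of all genes measured, but of these 3 only Iigp1 reached 20 UMIs. Oas2, an oligoadenylate synthetase, had 2 UMIs and Ifi44 had 5, so their distribution could not be described at this depth. No member with a row was at 0.

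Detection is partly set by depth. With each cell thinned to 1000 UMIs, which left out 116 control and 45 photoconversion cells, Ifi27l2a was detected in 31.9% of control and 32.4% of photoconversion cells, against 46.8% and 56.2% unthinned. Bst2 was detected in 31.7% and 31.2% after thinning, against 54.1% and 63.4% before. Ifitm3 was detected in 18.5% and 18.01%, against 37.1% and 44.5%. At equal depth the 3 genes were thus found in similar shares of cells in both libraries, and no other member reached 10% when both libraries were thinned.

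Among barcodes under 200 genes, whose share of free RNA was not measured, the list stood at 1417 CPM (UMIs per 1000000 UMIs of the cells summed) in the control and 1419 after photoconversion, against 2364 and 2181 in kept cells. Ifi27l2a stood at 429 CPM there in the control, against 762 in kept cells, and Bst2 at 334 against 490. Ifit1 had 0 UMIs there in both libraries. The exact Poisson limits of these zeros are 25.1 CPM in the control and 29.7 after photoconversion. In kept cells Ifit1 stood at 8.26 and 35.8 CPM, so the control zero does not separate the 2 sets of barcodes. Of the control barcodes marked as other brain cell types, 9 reached 500 UMIs. Thinned to that depth, Bst2 was found in 2 of them (22.2%), against 17.9% of 503 other cells, Ifitm3 in 3 (33.3%), against 11.9%, and Ifi27l2a in 0, which allows up to 33.3%, against 22.1%. After photoconversion 6 such barcodes held Bst2 in 0, which allows up to 50%, against 22.8% of 298 other cells, Ifitm3 in 2 and Ifi27l2a in 1. The median depths before thinning were 1870.5 and 2689 UMIs in the control and 741 and 3496 after photoconversion. By level, Ifi27l2a stood at 132 CPM in the control barcodes of other types against 772 in the other cells, and at 194 against 649 after photoconversion. Bst2 stood at 237 against 494 CPM, and at 583 against 440 after photoconversion, on 9 UMIs in the barcodes of other types in each library. Ifitm3 stood higher there, at 975 against 412 and at 1361 against 237 CPM. With so few barcodes these shares carry wide counting errors.

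Several genes had many UMIs in the few cells that held them. UMIs per detecting cell were at least 1.5 times the median of genes with a like UMI total (within 25% of it) for 6 of the 27 members with at least 20 UMIs, against 2.21% of all genes so measured. Iigp1, an immunity-related GTPase, was at 2.95 times that median, Ifit1, which binds foreign RNA, at 2.62, Ifit3 of the same family at 1.996, Isg15 at 1.82, Usp18, which removes Isg15 and dampens the receptor, at 1.56, and Ifit2 at 1.51. The 10 cells richest in a gene held 76.5% of the UMIs of Ifit1, 71.4% of Rsad2 (viperin) and 64.1% of Ifit3b. For Iigp1 they held all 30 UMIs by necessity, since only 9 cells detected it. Genes with as many UMIs as Ifit1 had a mean of 27.9% in their 10 richest cells, those like Rsad2 50.6% and those like Ifit3b 40.9%. For Bst2 the share in the 10 richest cells was 10.4%, close to the 10.3% of like genes. In UMIs per detecting cell Rsad2 and Ifit3b stayed under 1.5 times the median of like genes. A single cell held at least 50% of the Iigp1 UMIs, and 3 cells did for Ifit1, 4 for Rsad2 and 7 for Ifit3. For Bst2 87 cells were needed, for Ifi27l2a 51 and for Ifitm3 44.

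**Figure D1:**
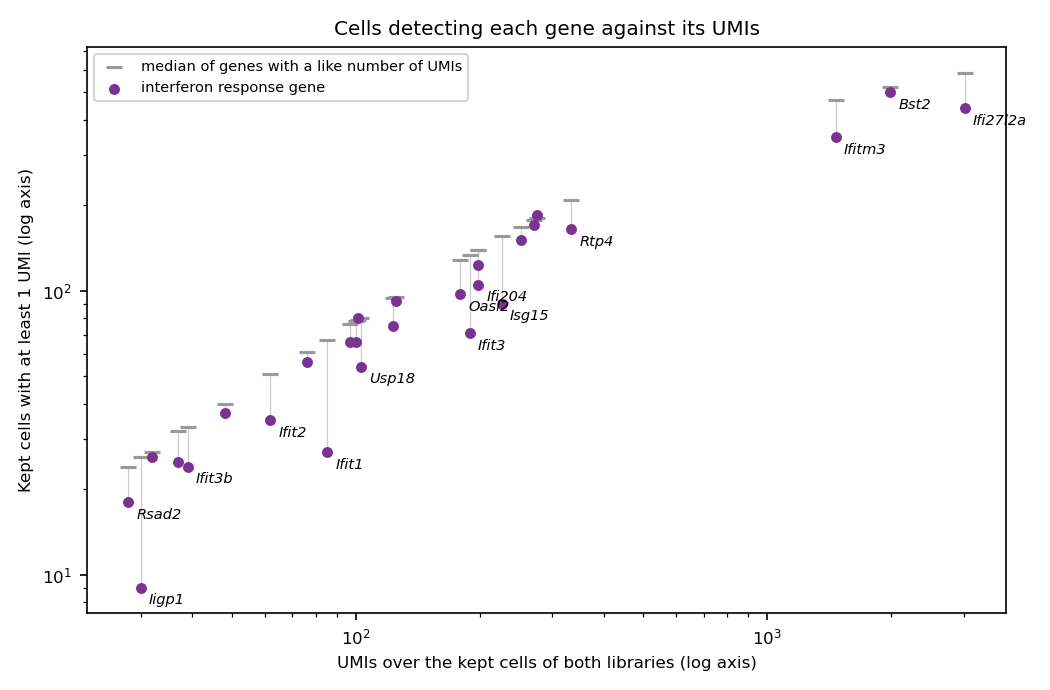
Kept cells with at least 1 UMI of each gene (vertical, log axis) against its UMIs over both libraries (horizontal, log axis) for the 27 members with at least 20 UMIs, each joined to the median of genes with a like UMI total. Bst2 (501 cells) lies near its grey bar, while Ifit1 (27 cells) and Iigp1 (9 cells) lie far under theirs.

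Summed over kept cells, the list had 5727 UMIs in the control, or 2364 CPM, and 3961 UMIs after photoconversion, or 2181 CPM. The ratio of photoconversion to control was 0.923 (0.886 to 0.961). That sum hid opposite directions. The trio stood at 1673 CPM among control cells, against 1332 after photoconversion, a ratio of 0.796 (0.757 to 0.838). For the other 26 genes it was 691 against 848 CPM (1.23, 1.15 to 1.32). Without 2 photoconversion cells described further on, which held 26 of the 29 genes each, the ratio of the other 26 was 0.983 (0.912 to 1.06), and that of the trio 0.783 (0.744 to 0.824).

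By count, 20 of 27 members were higher after photoconversion, where 42.3% of all 8823 genes measured were, and 7 were lower, where 57.7% were. At least 1.5-fold higher were 7 members, against 6.18% of all genes, and at least 1.5-fold lower were 3, against 9.84%. The median log2 ratio was 0.32 over the members and -0.06 over all genes. This count rested on few cells. Without the cells of both libraries that held 20 or more members (4 control and 6 photoconversion), 11 of 25 members were higher. With every cell thinned to 1000 UMIs 8 of the 13 still measured were higher.

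Ifitm3 had 1019 UMIs in the control (421 CPM, 395 to 447) and 447 after photoconversion (246 CPM, 224 to 270). Its ratio was 0.585 (0.522 to 0.655), and no interval of one library reached into the other. Ifitm3 is also abundant in monocytes and border macrophages. In the control, 12 cells had 3 or more UMIs of those markers and held 213 of the 1019 Ifitm3 UMIs. After photoconversion 5 cells did and held 28 of the 447, 23 of them in the 2 member-rich cells, which are among the 5. Without these cells the log2 ratio of Ifitm3 was -0.53, against -0.77 with them. Over all 14 alternatives run for Ifitm3 the log2 ratio lay between -0.87 and -0.53. Summed monocyte and border macrophage marker levels were 75.9 and 36.3 CPM in the control, against 15.97 and 9.91 after photoconversion. The defining markers Lyve1 in the control, and Cd163, Lyve1, F13a1 and Chil3 after photoconversion, were at 0.

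Parp9, an ADP-ribosyltransferase of the interferon response, had 71 UMIs in the control and 30 after photoconversion, a ratio of 0.564 (0.355 to 0.875). Oas1a, an oligoadenylate synthetase, had 84 and 41, a ratio of 0.651 (0.437 to 0.957). Ifi27l2a stood at 762 CPM (728 to 798) in the control and 645 (609 to 683) after photoconversion, a ratio of 0.846 (0.786 to 0.911). With each cell weighing equally its log2 ratio was 0.07 in place of -0.24, so its direction depends on how cells are weighted. Bst2 stood at 490 CPM (462 to 519) and 441 (411 to 473), a ratio of 0.9002 (0.822 to 0.985).

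Iigp1 had 4 UMIs in 4 control cells and 26 in 5 photoconversion cells, a ratio of 8.67 (3.01 to 34.2). Ifit1 had 20 UMIs in 14 control cells and 65 in 13 photoconversion cells, a ratio of 4.34 (2.59 to 7.56). Usp18 had 40 UMIs in 28 cells and 63 in 26, a ratio of 2.10 (1.39 to 3.21). Ifit3 had 80 UMIs in 44 cells and 109 in 27, a ratio of 1.82 (1.35 to 2.46). These ratios came largely from UMIs in single cells: 1 photoconversion cell held 51 of the 109 Ifit3 UMIs, 29 of the 65 of Ifit1 and 20 of the 63 of Usp18, and another held 19 of the 26 of Iigp1. Without the richest cell for the gene in each library the log2 ratio was 0.13 for Ifit3 (0.86 with it), 1.40 for Ifit1 (2.09), 0.67 for Usp18 (1.06) and 1.53 for Iigp1 (2.97). Without the cells holding 20 or more members, Ifit3 stood at -0.58 and Ifit1 at 0.46.

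Slfn5 and Stat2 differed less and kept their direction without their richest cells. Slfn5, a Schlafen protein, had 58 UMIs in the control and 65 after photoconversion, a ratio of 1.49 (1.03 to 2.17), and its log2 ratio stayed between 0.40 and 0.69 over 14 alternatives. Stat2, a subunit of the factor that drives the response, had 33 UMIs against 43, with a ratio of 1.74 (1.08 to 2.82) and a log2 ratio of 0.68 without its richest cells. The 2 member-rich photoconversion cells held 11 of those 43 UMIs. Without cells holding 20 or more members the log2 ratio of Stat2 was 0.41, against 0.79 with all cells. Isg15 stood at 51.2 CPM (42.6 to 61.0) and 56.2 (45.8 to 68.2), Rtp4 at 74.3 and 84.2, Trim30a at 61.5 and 67.2, Slfn2 at 61.9 and 56.2, and Ifi35 at 65.2 and 65.0. The interval of the ratio held 1 for each of these last 5 genes.

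**Figure D2:**
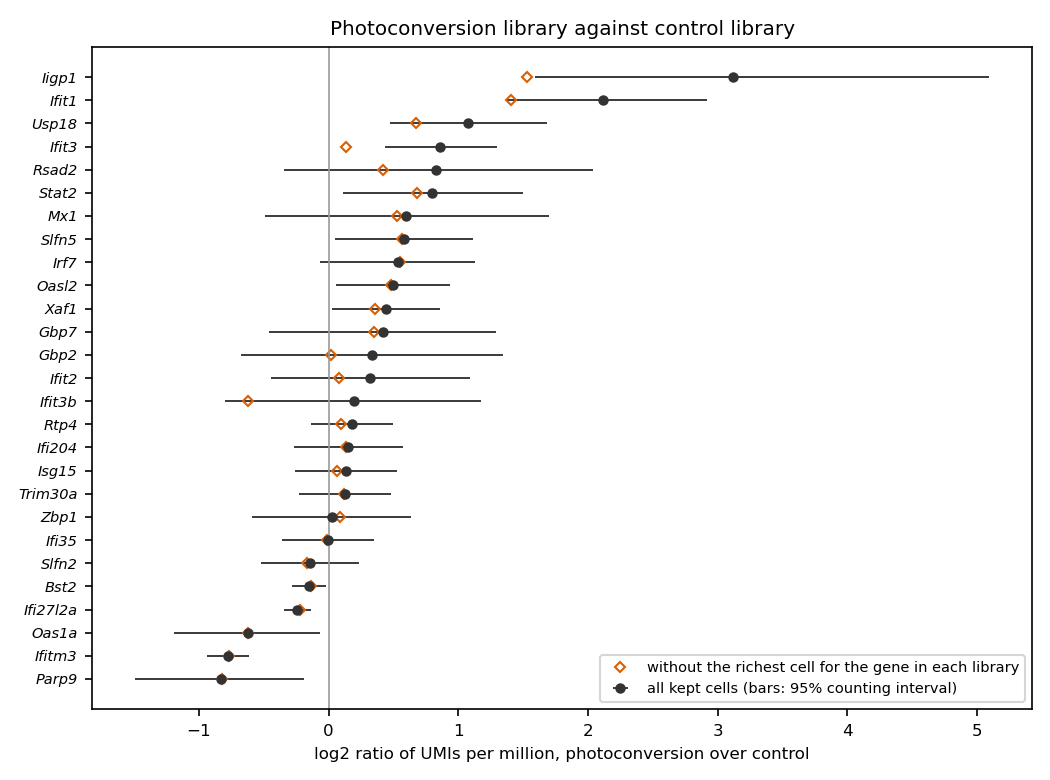
Log2 ratio of CPM after photoconversion over the control library for the 27 members with at least 20 UMIs (filled points with no count added, bars for the 95% counting interval), and the ratio with 0.5 added to each sum without the cell of each library richest in that gene (open diamonds). The diamond lies at 0.13 for Ifit3, whose point is at 0.86, and close to the point for Ifitm3 (-0.76 against -0.77).

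Cst7-dominant cells made up 37.3% of the control (207 of 555, 33.3 to 41.5%) and 49.5% of the photoconversion library (157 of 317, 43.9 to 55.2%). P2ry12-dominant cells numbered 290 and 133, and cells with equal counts 58 and 27. Since the rule is a cut on 2 genes, 43 of the 207 and 32 of the 157 Cst7-dominant cells lay within 2 UMIs of a tie. Cst7-dominant cells were deeper, with a median of 4655 UMIs against 2206.5 in the control and 5852 against 2739 after photoconversion. The median number of members detected was 4 against 1 and 4 against 2, in the same order. With cells thinned to 1000 UMIs this median was 1 in both classes of both libraries.

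The list as a whole stood at 2589 CPM in Cst7-dominant and 1907 in P2ry12-dominant control cells, a ratio of 1.36 (1.28 to 1.44). After photoconversion it stood at 2208 against 2021 CPM, or 1.09 times (1.01 to 1.18). The trio carried the higher value: it stood at 1930 against 1128 CPM in the control (ratio 1.71, 1.59 to 1.84) and at 1488 against 853 after photoconversion (1.74, 1.56 to 1.95). The other 26 genes were lower in Cst7-dominant cells, with 659 against 778 CPM in the control (0.847, 0.766 to 0.937) and 720 against 1168 after photoconversion (0.617, 0.554 to 0.686). The control value of these 26, -0.24 on the log2 scale, is smaller than the upward shift that another scaling gives, described next. The photoconversion value came from 2 of the 133 P2ry12-dominant cells. They held 402 of the 945 member UMIs of that class (42.5%) and 5.81% of its total UMIs. Without them the ratio of the 26 was 1.44 (1.24 to 1.68) and that of all 29 was 1.79 (1.63 to 1.97).

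By count, 6 of the 23 members measured in the control were higher in Cst7-dominant cells, where 30.7% of all genes were. After photoconversion 10 of 23 were higher, where 35.9% were. All genes leaned to the P2ry12-dominant side on the CPM scale, with a median log2 ratio of -0.35 in the control and -0.26 after photoconversion. Scaling by trimmed means of M values (TMM) moved every class ratio up by 0.36 and 0.35, and 16 and 13 of 23 members were then higher. A lower value in Cst7-dominant cells that is smaller than that shift turns to a higher one under this scaling.

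Of 22 members measured in both libraries, 5 were higher in Cst7-dominant cells in both (21.3% of all genes were), 11 lower in both (53.9%) and 6 opposite (24.8%). The 5 were Ifi27l2a, Bst2, Ifitm3, Slfn5 and Zbp1. Their class ratio stayed above 1 in both libraries in each alternative in which they had at least 20 UMIs, TMM scaling included. Ifi27l2a had the clearest separation. It stood at 1007 CPM (957 to 1060) in Cst7-dominant and 334 (296 to 376) in P2ry12-dominant control cells, a ratio of 3.01 (2.65 to 3.43). After photoconversion it stood at 770 (724 to 819) and 278 (232 to 330), a ratio of 2.77 (2.31 to 3.35). Thinned to 1000 UMIs, 48.1% of 183 and 17.2% of 232 control cells held Ifi27l2a, and 41.5% of 142 and 21.0% of 119 photoconversion cells did. So the order of the classes for Ifi27l2a was the same in both libraries, in CPM and at equal depth.

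Bst2 differed less, with 529 CPM against 443 in the control (1.19, 1.05 to 1.36) and 461 against 379 after photoconversion (1.22, 1.03 to 1.45). Ifitm3 stood at 393 and 351 CPM in the control (1.12, 0.972 to 1.29) and at 257 and 197 after photoconversion (1.30, 1.03 to 1.66). Thinned to 1000 UMIs per cell the log2 class ratio of Ifitm3 was 0.77 in the control and 1.61 after photoconversion, against 0.16 and 0.38 with all UMIs. Thinned, 24.6% of Cst7-dominant against 11.6% of P2ry12-dominant control cells held Ifitm3, and 23.9% against 9.24% of photoconversion cells. Slfn5 stood at 28.6 and 17.9 CPM in the control (1.60, 0.871 to 3.11) and 41.2 and 21.4 after photoconversion (1.93, 0.972 to 4.25), and both intervals held 1. Zbp1, a sensor of Z-form nucleic acid, had 47 UMIs in Cst7-dominant and 6 in P2ry12-dominant control cells, a ratio of 4.49 (1.91 to 12.8). After photoconversion it had 31 and 9, a ratio of 1.23 (0.571 to 2.94). Of those 9 UMIs, 7 lay in the same 2 cells, and without cells holding 20 or more members the log2 class ratio of Zbp1 after photoconversion was 1.79.

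On the other side, Gbp7, a guanylate-binding GTPase, had 8 UMIs in 6 Cst7-dominant and 16 UMIs in 16 P2ry12-dominant control cells, a ratio of 0.286 (0.106 to 0.709). After photoconversion it had 3 UMIs in 3 cells and 20 in 11, a ratio of 0.0535 (0.0102 to 0.181). The 2 rich cells held 6 of those 20 UMIs, and Gbp7 stayed lower in Cst7-dominant cells in each alternative in which it was measured. Gbp2 had 7 and 12 UMIs in the control and 7 and 11 after photoconversion, of which 9 of the 11 lay in the 2 cells. Ifit3 had 33 UMIs in Cst7-dominant and 45 in P2ry12-dominant control cells (0.420, 0.260 to 0.673), and Parp9 34 and 34 (0.573, 0.345 to 0.9497). Under TMM scaling the log2 class ratio of Parp9 was -0.44 in the control and 0.20 after photoconversion.

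After photoconversion the intervals of Iigp1, Ifit1, Ifit3, Usp18, Stat2, Slfn2, Rtp4 and Xaf1 lay under 1, beside that of Gbp7. Iigp1 had 4 UMIs in Cst7-dominant and 22 in P2ry12-dominant cells (0.0649, 0.0163 to 0.191), and all 22 lay in the 2 cells. Ifit3 had 63 UMIs in P2ry12-dominant cells, 60 of them in those 2, and Ifit1 had 41, 39 of them there. Usp18 had 27, with 24 there, and Stat2 had 18, with 11 there. Of the 58 UMIs of Rtp4, 22 lay there, of the 34 of Xaf1 17, and of the 39 of Slfn2 only 8. Slfn2 stood at 41.2 CPM in Cst7-dominant and 83.4 in P2ry12-dominant photoconversion cells (0.494, 0.321 to 0.766), and at 53.9 and 72.6 in the control (0.742, 0.524 to 1.05).

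**Figure D3:**
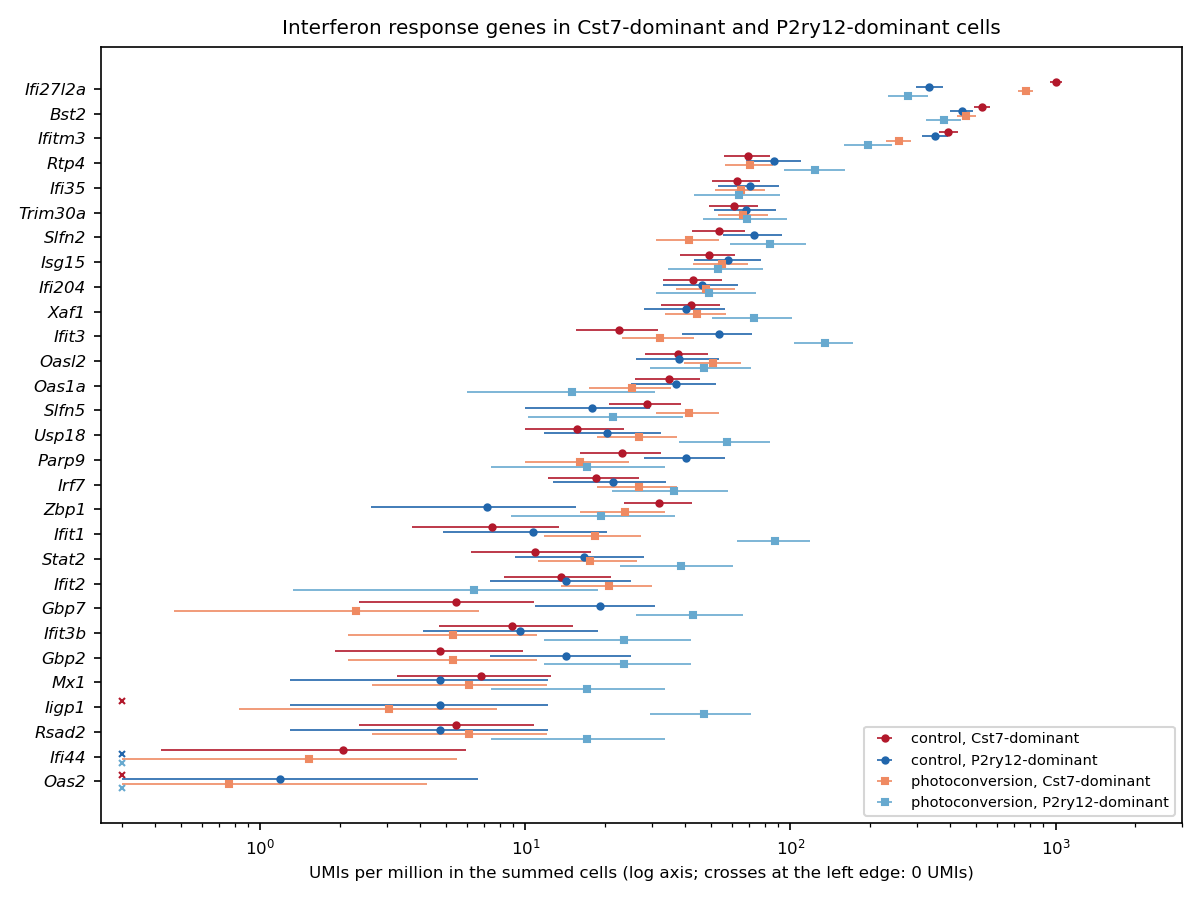
CPM of each of the 29 genes (horizontal, log axis) in Cst7-dominant and P2ry12-dominant cells of both libraries, with exact 95% Poisson intervals as bars cut at the left edge, and crosses for 0 UMIs. Ifi27l2a separates by class in both libraries (1007 against 334 and 770 against 278 CPM), while Ifit1 and Ifit3 are highest in the P2ry12-dominant photoconversion cells (87.7 and 135 CPM).

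Between libraries within a class, 14 of 22 members measured in Cst7-dominant cells were higher after photoconversion, where 48.8% of all genes were. In P2ry12-dominant cells 15 of 22 were, where 44.8% of all genes were. The 2 member-rich cells held 402 of the 945 member UMIs of P2ry12-dominant photoconversion cells. The count of 15 was not repeated without them, so it may rest on those cells. Ifitm3 was lower in both classes, at 393 CPM in the control against 257 in Cst7-dominant cells (0.652, 0.568 to 0.747) and at 351 against 197 in P2ry12-dominant cells (0.560, 0.439 to 0.711). Ifi27l2a was at 0.765 (0.705 to 0.829) in Cst7-dominant cells and at 0.831 (0.670 to 1.03) in P2ry12-dominant cells. The Ifitm3 value was thus lower after photoconversion within each class. Ifit1 was higher in both classes, with 11 control and 24 photoconversion UMIs in Cst7-dominant cells (2.44, 1.15 to 5.53) and 9 and 41 in P2ry12-dominant cells (8.19, 3.92 to 19.2). Of the 24, 8 lay in a barcode with mainly endothelial markers, and without barcodes of other brain cell types the Cst7-dominant ratio of Ifit1 was 1.63 (0.709 to 3.88). Of the 41, 39 lay in the 2 cells.

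Per cell, a median of 2 members was detected in the control and 3 after photoconversion. At least 5 members were detected in 25.8% of control cells (22.2 to 29.6%) and, after photoconversion, in 31.9% (26.8 to 37.3%). Thinned to 1000 UMIs these shares were 24 of 439 (5.47%, 3.53 to 8.03%) and 12 of 272 (4.41%, 2.30 to 7.58%). The order turned at equal depth. With and without thinning the intervals of the 2 libraries overlapped, and the difference itself was not tested. At least 10 members were detected in 43 control cells (7.75%) and 29 photoconversion cells (9.15%).

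Members found in fewer than 10% of cells were detected in the same cells more often than the product of their shares gives. Over the 136 pairs of these 17 genes, both members were found together 568 times in the control, where the products sum to 119.7, or 4.75 times as often. After photoconversion the count was 575 against 125.2, or 4.59 times. Cell depth raises all such counts. At 1000 UMIs per cell the excess was 5.77 and 5.69 times, on 43 and 34 joint detections. For the 3 pairs of the trio it was 1.44 and 1.28 times without thinning. For genes found in many cells this ratio has a low ceiling, so the trio values cannot be set against those of the scarcer genes. These are descriptions across pairs that share genes and cells. A cell adds a joint detection for every pair it holds, so a few member-rich cells weigh heavily in the sums. In the control 4 cells, and after photoconversion 6, held 20 or more members, and the sums without them were not computed. The same ratio over pairs of other genes is not given here.

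Among these 136 pairs, those found in the most cells joined Irf7, a transcription factor that amplifies the response, and Slfn5 to the Ifit genes, Zbp1 and Usp18. Irf7 and Slfn5 were found together in 15 control and 15 photoconversion cells, where the products of their shares give 2.52 and 3.42. Ifit3 and Slfn5 were together in 18 and 10 cells (3.17 and 2.98), Ifit3 and Irf7 in 14 and 10 (2.77 and 2.64), Irf7 and Zbp1 in 13 and 11 (2.21 and 3.03), and Ifit2 and Slfn5 in 13 and 10 (1.44 and 1.66). Irf7 with Usp18, Slfn5 with Zbp1, and Slfn5 with Usp18 followed, with 22 cells each over both libraries. None of the 4 Ifit genes was found in 493 of the control and 278 of the photoconversion cells, and all 4 were found in 2 and 4 cells.

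**Figure D4:**
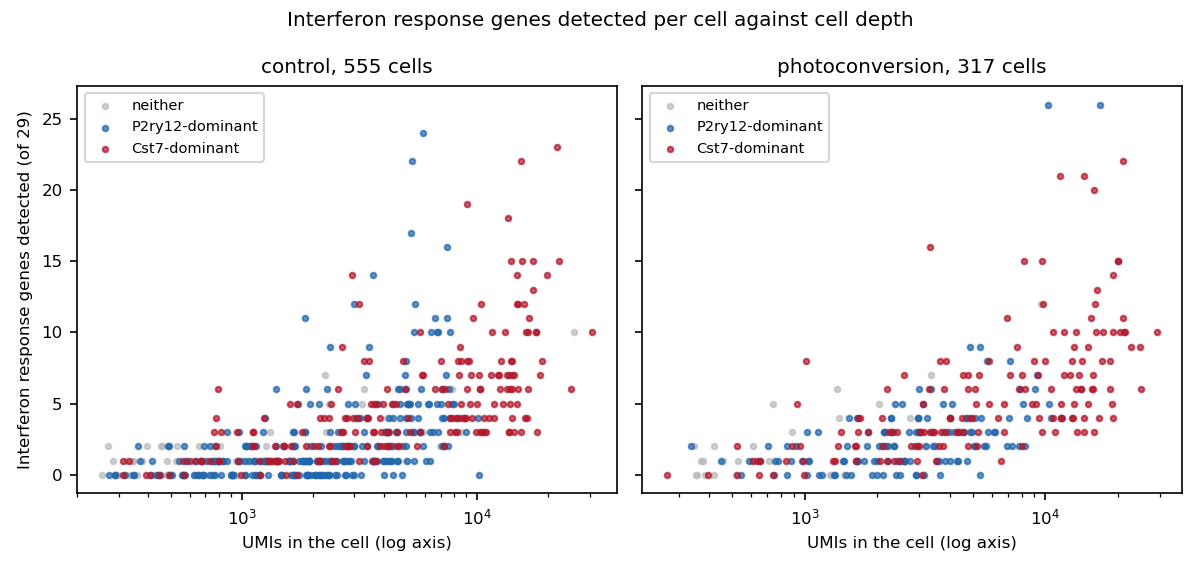
Members detected per cell (vertical, of 29) against the UMIs of the cell (horizontal, log axis), by dominant marker, in 555 control and 317 photoconversion cells. The number rises with depth in both libraries, and a few cells stand far over others of like depth, up to 24 members in the control and 26 after photoconversion.

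The 43 control cells with at least 10 members were 27 Cst7-dominant, 15 P2ry12-dominant and 1 with neither, and held 42.0% of the member UMIs in 21.0% of all UMIs. The 29 photoconversion cells were 26, 2 and 1, and held 46.0% in 24.7%. Their median depths were 11580 and 16185 UMIs. Of P2ry12-dominant cells only 2 control and 5 photoconversion cells reached 10000 UMIs, against 63 and 57 Cst7-dominant cells. Between 3000 and 10000 UMIs, 13 of 107 control and 0 of 52 photoconversion P2ry12-dominant cells held 10 members, and 4 of 71 and 5 of 58 Cst7-dominant cells did. A count of 0 among 52 allows a share of up to 5.77%. The part of depth in the split by class was not tested. These cells were chosen by the members, so only other genes bear on what else they carry. Ifnar2 stood at 281 CPM in them and 293 in the rest of the control, and at 284 and 264 after photoconversion. Ifngr1, the interferon-gamma receptor, stood at 228 against 472 and at 159 against 358. Ifngr1 was also lower in Cst7-dominant cells, with log2 class ratios of -2.24 in the control and -2.05 after photoconversion. Most of the member-rich cells were Cst7-dominant, and the part of class in these Ifngr1 values was not tested.

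The richest control cell, P2ry12-dominant, held 24 members and 118 member UMIs among 5905. The next control cells held 23, 22 and 22 members. After photoconversion 2 P2ry12-dominant cells held 26 members each, with 235 member UMIs among 10251 and 167 among 16908. The first had 217 of the 254 UMIs of Cxcl10, an interferon-induced chemokine, found in that library, and 257 of the 584 of Ccl12, another chemokine. The second had 34 of Cxcl10 and 15 of Ccl12. Both carried microglia markers, with 388 and 685 UMIs, P2ry12 (18 and 10) and Tmem119 (10 and 21) included. They also held 4 and 14 UMIs of Plac8, of 21 in the library, while the other monocyte markers Ly6c2, Ccr2 and Chil3 were at 0 in both. They rank among the 5 deepest P2ry12-dominant photoconversion cells, and whether either is a doublet was not tested.

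The next 4 photoconversion cells were Cst7-dominant and held between 20 and 22 members. A further barcode with 16 members had 86 UMIs of endothelial markers and 9 of microglia markers, and it counted as Cst7-dominant on 2 Cst7 UMIs. It held 8 of the Ifit1 UMIs and 0 of Ifi27l2a. Ifi27l2a did not follow the rest in the first of the 2 P2ry12-dominant cells either, where it had 1 UMI beside 51 of Ifit3.

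**Figure D5:**
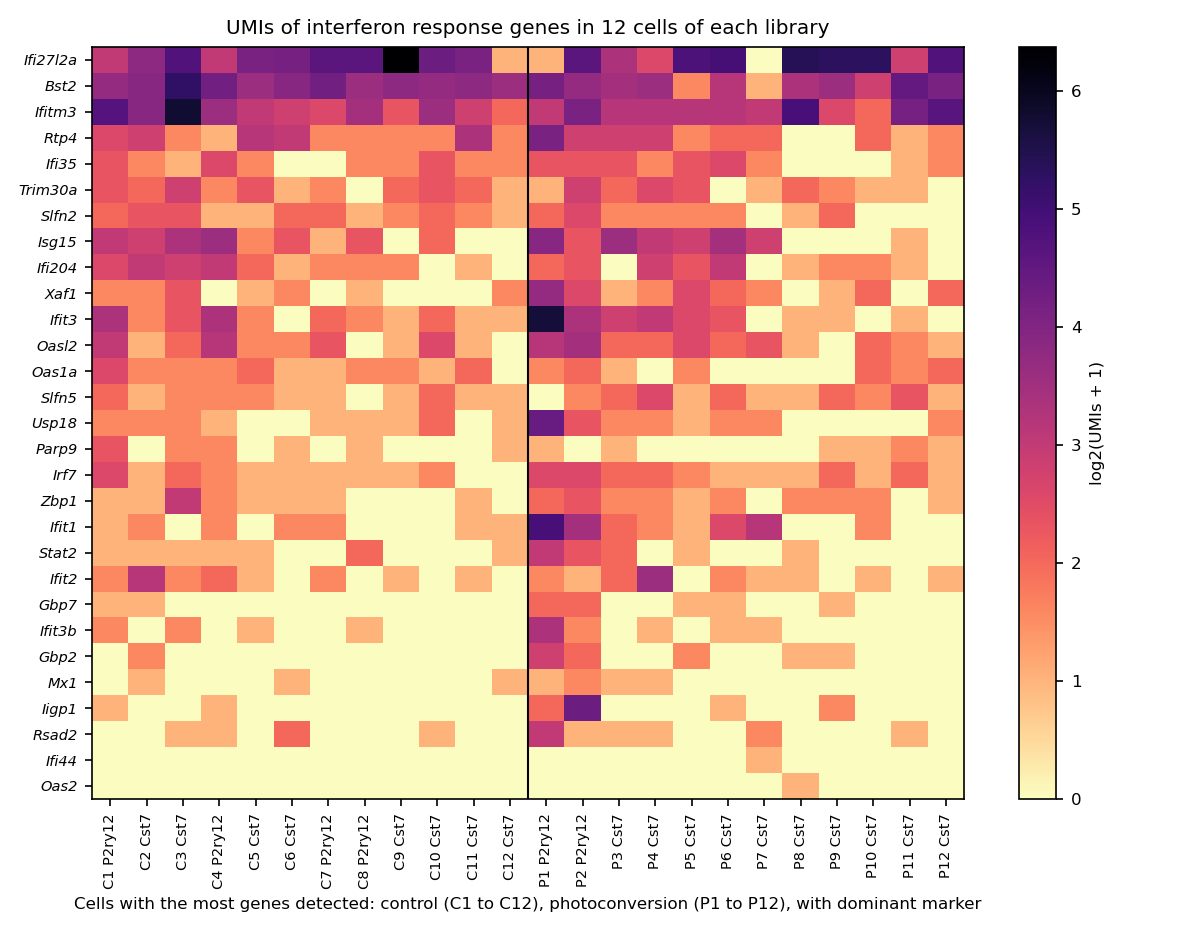
UMIs of each of the 29 genes, as log2(UMIs + 1), in the 12 cells of each library with the most members detected, control on the left (C1 to C12) and photoconversion on the right (P1 to P12), labelled with the dominant marker. P1 stands out in Ifit3 (51 UMIs), Ifit1 (29) and Usp18 (20), and P2 in Iigp1 (19), while control cells have at most 9 UMIs of Ifit3.

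Around the response, the genes that make, sense and transmit interferon were taken as 4 lists. All 21 ligand genes with a row, the alpha, beta, gamma and lambda interferons among them, had 0 UMIs in kept cells of both libraries, which allows each of them up to 1.24 CPM in control and 1.65 CPM in photoconversion cells. Of 17 sensing genes measured, 7 were higher and 10 lower after photoconversion, with a median log2 ratio of -0.04, close to the 42.3% and 57.7% over all genes. Unc93b1, which carries endosomal Toll-like receptors, had 1839 UMIs in the control and 1035 after photoconversion (0.751, 0.695 to 0.811). Tmem173, or STING, the adaptor of cytosolic DNA sensing, had 379 and 253 (0.890, 0.756 to 1.05). Ifih1, a sensor of double-stranded RNA, had the largest ratio, with 18 and 28 UMIs (2.08, 1.11 to 3.98), and Tbk1, a kinase downstream of the sensors, the smallest, with 70 and 38 (0.724, 0.475 to 1.09).

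Of 16 receptor and signalling genes measured, 8 were higher and 8 lower, beside the same 42.3% and 57.7%. Irf8, a myeloid transcription factor, had 979 and 796 UMIs (1.08, 0.987 to 1.19) and Ifngr1 1020 and 561 (0.734, 0.661 to 0.814). Jak2 had the largest ratio (18 and 23 UMIs, 1.70, 0.880 to 3.35) and Tyk2 the smallest (31 and 15, 0.645, 0.324 to 1.23). The receptor genes Ifnar1 and Ifnar2 stood at 33.4 and 291 CPM in the control and at 27.5 and 269 after photoconversion. In 12 of these genes measured in both classes, 9 were lower in Cst7-dominant cells in both libraries and 0 higher. For the sensing genes 13 of 16 were lower in both and 0 higher, beside the 53.9% of all genes lower in both.

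Among 46 other interferon-induced genes measured, 30 were higher and 16 lower after photoconversion, with a median log2 ratio of 0.12, where 42.3% of all genes were higher. Of these, 7 were at least 1.5-fold higher and 3 at least 1.5-fold lower, beside 6.18% and 9.84% of all genes. The counts for this list were not repeated without the cells holding 20 or more members. That step lowered the count of members higher after photoconversion. By class, 8 of 35 were higher in Cst7-dominant cells in both libraries, 17 lower and 10 opposite, beside 21.3%, 53.9% and 24.8% of all genes. Ly6e, a surface protein and the most abundant, had 4689 and 3519 UMIs (1.001, 0.958 to 1.05), and Lgals3bp had 1224 and 951 (1.04, 0.951 to 1.13). Cxcl10 had the largest ratio, 24.2 (14.2 to 44.9), and Cxcl9, a chemokine typical of interferon-gamma, the smallest, with 22 UMIs in the control and 1 after photoconversion. Of the 22, 20 lay in 1 cell, as most Cxcl10 did after photoconversion. Each chemokine contrast thus came from 1 or 2 cells.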

How the data were processed

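Deposited values were whole UMI counts per gene and barcode, which the authors made with Cell Ranger (3.0.2, per the file headers) after bcl2fastq and against mm10, per the submitters' processing notes. The gene annotation is not given in the sources used here, and UMIs were not scaled for gene length. Barcodes with at least 200 genes and at most 10% mitochondrial UMIs were kept. Counts were summed per library or class and divided by all UMIs of those cells. Ratios have exact binomial 95% intervals, CPM values exact Poisson intervals and shares of cells exact Clopper-Pearson intervals. Log2 ratios add 0.5 to each sum, and a gene counted as measured at 20 UMIs over both sums. With 1 library of 3 pooled mice per group no test was made. A count of 0 is given the limit of 3 counts or, where stated, its exact Poisson limit. The scripts were tested on simulated data (Python 3.11.15, numpy 2.4.6, scipy 1.17.1, pandas 2.3.3, edgeR 4.0.16 for TMM factors only). The members and lists were chosen with earlier results of these data known. Named members were the 8 with the most UMIs, the 4 most concentrated in their 10 richest cells, the 3 largest and 3 smallest ratios, those with class intervals clear of 1, and the leading pairs. Gbp2, Oas2, Ifi44, Ccl12 and the receptor genes Ifnar1 and Ifnar2 fall outside this rule, and they and the 2 member-rich cells were chosen after their values were seen. Promoter windows were read from RefSeq on GRCm38.p6. A result on 1 further gene is not reported here. Alternatives covered barcode filters, thinning, scaling, left-out cells and the class rule.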

Additional observations from a re-analysis of the deposited data

Results flagged for a closer look

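For 6 members the class difference had opposite signs in the libraries, as log2 ratios of Cst7-dominant over P2ry12-dominant cells, and the difference between the libraries was not tested. Ifit2 stood at 1.49 after photoconversion and at -0.09 in the control, on 30 and 32 UMIs, and its 3 P2ry12-dominant UMIs after photoconversion all lay in the 2 member-rich cells. Oas1a stood at 0.67 and -0.09, and 5 of its 7 P2ry12-dominant UMIs lay there. Xaf1 stood at -0.72 and 0.05, with 17 of 34 there. Oasl2 stood at 0.10 and -0.03, Isg15 at 0.021 and -0.25, and Ifi35 at 0.00097 and -0.17. For these last 3 genes both counting intervals held a ratio of 1.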

How the results depend on the processing

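No paired analysis was possible because each group was 1 library, and for the same reason none was left out. Of the summed and counted results, 80 values under an alternative stayed within the limits set, 42 moved beyond them and 3 reversed. The alternatives without cells rich in monocyte or border macrophage markers, without cells holding 20 or more members, without a gene's richest cells, without barcodes of other types within a class and without the 2 member-rich cells were chosen after seeing the data.

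The log2 ratio of the summed members after photoconversion over control was -0.21 without the 10 cells of each library richest in members, -0.056 with TMM factors, -0.0071 with cells weighing equally, -0.25 without cells holding 20 or more members, and reversed to 0.30 without Ifi27l2a, Bst2 and Ifitm3. Members higher after photoconversion numbered 8 of 13 when thinned, 9 of 25 without the 10 richest cells, 13 of 26 without monocyte or border macrophage marker cells and 11 of 25 without cells holding 20 or more members. Their median log2 ratio turned to -0.11, -0.014 and -0.12 under the last 3 of these. Ifit3 turned to -0.60, -0.21 and -0.58 under the same 3, and Ifi27l2a to 0.066 with cells weighing equally.

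The log2 ratio of the summed members between classes (Cst7-dominant over P2ry12-dominant) in the control was 0.73 when thinned, 0.81 with TMM factors, 0.83 with median-of-ratios factors, 0.76 with cells weighing equally, 0.75 with a class difference of 3 UMIs, 0.56 without cells holding 20 or more members and -0.24 without the 3 abundant genes. After photoconversion it was 0.0135 at no more than 5% mitochondrial UMIs, 0.54 thinned, 0.51 and 0.61 without the richest and the 10 richest cells, 0.47 and 0.48 with TMM and median-of-ratios factors, 0.58 with cells weighing equally, 0.85 without monocyte or border macrophage marker cells, 0.72 without cells holding 20 or more members and -0.70 without the 3 abundant genes.

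Members higher in Cst7-dominant control cells numbered 10 of 20 without the 10 richest cells, 16 and 17 of 23 with TMM and median-of-ratios factors, 12 with cells weighing equally, 12 of 22 with a class difference of 3 UMIs and 12 of 20 without cells holding 20 or more members. After photoconversion they numbered 4 of 4 thinned and 18 of 21 without monocyte or border macrophage marker cells. The median log2 class ratio in the control turned to 0.28 thinned, 0.028 without the 10 richest cells, 0.21 and 0.24 with the 2 scalings, 0.046 with cells weighing equally, 0.095 with a class difference of 3 UMIs and 0.061 without cells holding 20 or more members. After photoconversion it turned to 0.86 thinned, 0.17 and 0.36 without the richest and the 10 richest cells, 0.29 with either scaling, 0.085 with cells weighing equally, 0.71 without monocyte or border macrophage marker cells and 0.45 without cells holding 20 or more members.

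The photoconversion log2 class ratio of Ifit3, negative with all cells, reversed to 0.25 and 0.99 without the richest and the 10 richest cells, 0.085 with cells weighing equally, 2.06 without monocyte or border macrophage marker cells and 1.05 without cells holding 20 or more members. Usp18 reversed to 0.72, 1.51, 0.59, 1.80 and 1.52 under the same 5. Without monocyte or border macrophage marker cells Ifit1 reversed to 1.75, Stat2 to 0.11 and Xaf1 to 0.20, and Rtp4 reversed to 0.30 when thinned. Most of these alternatives leave out 1 or both of the 2 member-rich photoconversion cells.

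Members in at least 10% of cells numbered 3 when thinned and 3 at a minimum of 2 UMIs. Members in under 2% numbered 14 when thinned, 6 without the 10 richest cells and 12 at 2 UMIs. Control cells with 5 or more members made up 30.5% at a minimum of 400 genes, 30.4% at no more than 5% mitochondrial UMIs, 5.47% thinned and 7.39% at 2 UMIs. Photoconversion cells with 5 or more members made up 4.41% thinned and 11.99% at 2 UMIs. Where no cause is named above, the cause was not tested.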
